A study of Homo sapiens with 16 samples.

Results

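The BMP ligands, the secreted proteins that hold BMPs back, a BMP receptor and the ID genes were examined in cell lines with and without Wnt reporter activity. The set held 10 genes of the 57820 in the tables: the ligands BMP2, BMP4 and BMP7, the secreted regulators BMPER, GREM1 and NOG, the type I receptor BMPR1B, and the targets ID1, ID2 and ID3. It was chosen with earlier results of these data known. Its counts of called genes beside the share over all genes are therefore descriptions and no test of enrichment. Bulk RNA-Seq was made from MDA-MB-231 and MDA-MB-436, established lines of mesenchymal triple-negative breast cancer. Every group, the 7TGP-NEG groups included, carried the 7TGP plasmid, in which Tcf/Lef sites drive eGFP. All had been selected with puromycin and sorted repeatedly by eGFP into 7TGP-POS and 7TGP-NEG sublines. Each subline was grown either in low serum (0.5% FBS, harvested on day 3) or in standard serum (10% FBS, harvested on day 6), which gave 8 groups with 2 biological replicates each and 16 libraries. The groups therefore differ in reporter state through long selection of sublines and not through an added Wnt ligand, and each line is a single cancer-derived culture. Per the paper's methods, the lines were kept in different basal media, so that cell line and medium cannot be told apart.

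BMPs are secreted factors of the TGF-β superfamily that bind type I and type II serine/threonine kinase receptors. The receptors phosphorylate SMAD proteins, which enter the nucleus with a common SMAD and switch on genes of which the ID genes are the best known. ID proteins lack a DNA-binding region and hold E proteins and other basic helix-loop-helix factors away from DNA, and secreted proteins such as noggin and gremlin bind BMPs outside the cell and keep them from their receptors.

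The libraries held between 27918418 and 46044073 counts on genes, and the median SD between replicates was 0.0434 to 0.0770 on a log2 CPM scale, highest in the standard serum libraries of MDA-MB-436 7TGP-POS. The mesenchymal markers VIM (369 to 3882 TPM), FN1 and ZEB1 were expressed in both lines. CDH1, the epithelial cadherin, did not exceed 0.15 TPM, and ESRP1 did not exceed 1.2. Other markers were mixed. The epithelial KRT8 and KRT18 were high, and in MDA-MB-231 EPCAM read 6.96 to 12.11 TPM and CLDN4 26.65 to 39.41. The mesenchymal marker CDH2 was at or below 0.66 TPM in MDA-MB-231 against 100 TPM or more in MDA-MB-436. SPARC read 0.39 to 1.34 TPM in MDA-MB-231, and SNAI2 1.89 to 5.1 TPM in MDA-MB-436. ESR1 and PGR stayed at or below 0.20 TPM, and ERBB2 read 16.9 to 27.8 TPM. Serum, the day of harvest, the way libraries were made and the sequencing run changed together and cannot be told apart, so each serum condition was tested on its own. Levels are given in TPM, which allows genes of different length to be compared, and changes as log2 fold changes of counts from edgeR's quasi-likelihood test with its standard error (SE). A gene was called when its adjusted p was under 0.05 and its log2 fold change at least 1 in either direction. Of 10 canonical Wnt targets, 1 was called in MDA-MB-231 in each serum condition, higher in POS, beside a share over all genes of 5.9% (low serum) and 7.69% (standard serum). In MDA-MB-436, 2 were called in low serum (1 higher and 1 lower) beside 10.5%, and 3 in standard serum (1 higher and 2 lower) beside 12.5%. The eGFP transcript was not analysed here. The p-values rest on the spread between the 2 replicates of a subline, estimated jointly over the 4 groups of a serum condition. In bulk RNA a smaller number of expressing cells cannot be told apart from less RNA per cell. Against the median gene, TPM ran lower in the POS groups of low serum, by -0.21 (log2) in MDA-MB-231 and by -0.25 in MDA-MB-436, and by 0.10 higher in MDA-MB-436 in standard serum, so changes were read from the fitted values. Between POS and NEG, the sign turned on the TPM scale for ID2 in MDA-MB-231 and BMP2 in MDA-MB-436 in low serum. It also turned for ID3 in MDA-MB-436 in standard serum, and none of these changes was called.

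In MDA-MB-231, 4 of the 10 genes were called between POS and NEG in low serum, where 5.9% of the 16069 genes tested were called, and 3 in standard serum, where 7.69% of 15414 were called. BMPER and NOG rose and ID1 fell in both, and ID3 fell in low serum. In MDA-MB-436, 2 genes were called in low serum (BMP4 and BMPER, both higher in POS) beside a background of 10.5%, and 2 in standard serum (BMPER higher, ID1 lower) beside 12.5%. The median log2 fold change of the 10 genes was 0.32 and 0.30 in MDA-MB-231 and 0.49 and 0.25 in MDA-MB-436 (low and standard serum), while the medians over all genes tested lay between -0.01 and 0.01. These medians describe a mixed set of ligands, regulators, a receptor and targets. In MDA-MB-231 they include BMP7 and GREM1, which rested on few or no counts. BMPER was called in all 4 comparisons, and ID1 was lower with an adjusted p under 0.05 in all 4 and called in 3.

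**Figure D1:**
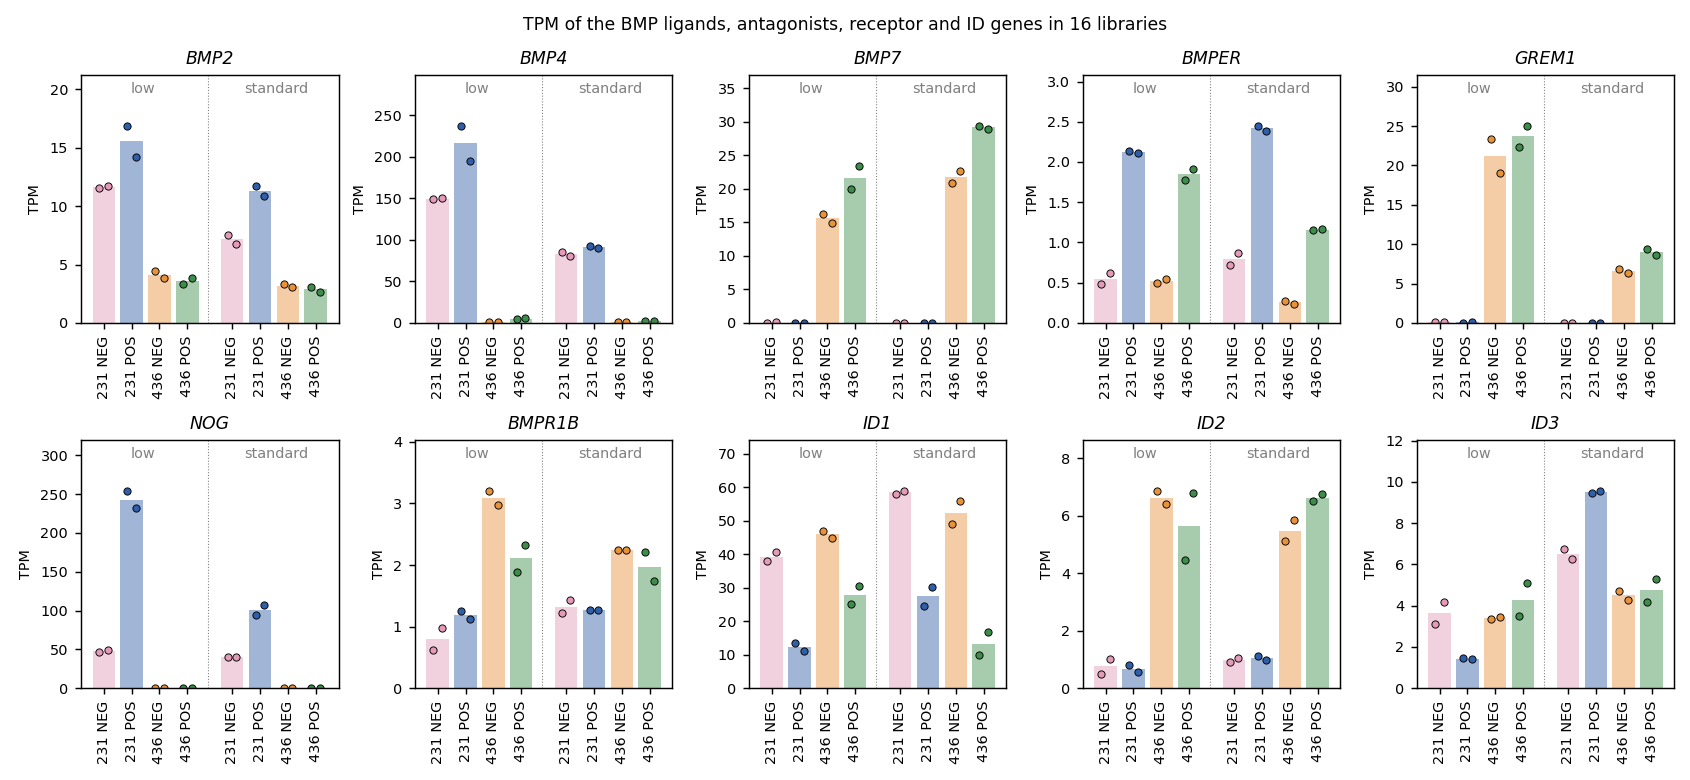
TPM of each of the 10 genes (vertical axis, one linear scale per panel) in the 8 groups, with low serum left of the dotted line and standard serum right of it. Bars are means and points the 2 replicates. BMP4 and NOG stand out in MDA-MB-231, BMP7 and GREM1 in MDA-MB-436, and BMPER is higher and ID1 lower in every POS group than in its NEG group.

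Of the 3 ligands, BMP4 was the most abundant in MDA-MB-231 and BMP7 in MDA-MB-436. BMP4 (ENSG00000125378; GRCh37 chr14:54416454-54425479, minus strand), a ligand that patterns mesoderm and many epithelia, read 149 and 150 TPM in the 2 MDA-MB-231 NEG libraries in low serum and 238 and 195 in POS. In MDA-MB-436 it read 0.54 and 1.02 TPM in NEG (17 and 31 counts) and 4.46 and 5.79 in POS (180 and 187 counts). In standard serum it read 85.9 and 80.5 TPM in NEG and 92.2 and 90.4 in POS of MDA-MB-231, and 1.39 and 0.95 against 1.89 and 2.56 in MDA-MB-436. POS and NEG libraries did not overlap in any of these pairs, but the steps were unequal in size. The log2 fold change was 0.73 (SE 0.06, adjusted p = 3.78e-12) in MDA-MB-231 in low serum and 0.10 (SE 0.10, adjusted p = 0.494) in standard serum. In MDA-MB-436, BMP4 rose by 2.96 (SE 0.18, adjusted p = 4.26e-15) in low serum, a 7.77-fold change, and the standard serum value of 0.83 (SE 0.20, adjusted p = 0.00242) lay under the fold threshold. The differences of the change (MDA-MB-231 minus MDA-MB-436) were -2.23 (SE 0.20, adjusted p = 4.55e-11) under low serum and, under standard serum, -0.73 (SE 0.22, adjusted p = 0.0140). For such a difference 4 of the 10 genes passed both thresholds with low serum and 0 with standard serum, beside 11.7% and 13.8% of all genes tested. Single MDA-MB-436 libraries of few counts moved these values in both directions. In low serum the rise was 2.44 and the difference -1.71 without NEG replicate 1, and they were 3.55 and -2.83 without NEG replicate 2. In standard serum the value of 0.83 became 1.12 without NEG replicate 1 and 1.03 without POS replicate 1, but 0.54 (adjusted p = 0.0788) without NEG replicate 2. The standard serum difference ran from -1.03 without NEG replicate 1 to -0.45 (adjusted p = 0.195) without NEG replicate 2, and was -0.52 (adjusted p = 0.0721) without POS replicate 2, so that it rested on single libraries. The 50 expressed genes nearest to BMP4 had median changes of 0.32 and 0.38 in MDA-MB-436, in low and standard serum, and of 0.10 and 0.04 in MDA-MB-231, and the part of that shift in the BMP4 values was not tested.

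Even after this rise, BMP4 in MDA-MB-436 POS stayed far under the level of MDA-MB-231. Between the NEG groups the log2 fold change (MDA-MB-231 over MDA-MB-436) was 7.99 (SE 0.11, adjusted p = 2.51e-33) in low serum, and 6.33 (SE 0.15, adjusted p = 3.17e-17) in standard serum, and the first reached 8.59 without MDA-MB-436 NEG replicate 2. Of the 10 genes, 7 were called between the NEG groups in each serum condition, beside 41.9% and 46.7% of all genes tested. BMP4 made up between 88.7% and 93.3% of the summed TPM of BMP2, BMP4 and BMP7 in each MDA-MB-231 library and between 2.54% and 17.5% in MDA-MB-436.

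BMP7 (ENSG00000101144; chr20:55743809-55841697, minus strand), a ligand known from kidney and bone, was the highest of the 3 in MDA-MB-436, where the related ligands GDF5 and BMP8B stood at similar levels. GDF5 averaged 13.1 TPM in NEG and 15.1 in POS in low serum, while standard serum gave 22.8 and 33.9, and BMP8B averaged 11.4 to 17.1 TPM over the 4 groups and in low serum NEG lay slightly above BMP7. Neither was called between POS and NEG. BMP7 read 16.3 and 14.9 TPM in NEG and 19.95 and 23.4 in POS in low serum, and 20.8 and 22.7 against 29.4 and 28.9 in standard serum. POS libraries lay above NEG libraries in both, by a log2 fold change of 0.72 (SE 0.08, adjusted p = 9.93e-11) and of 0.33 (SE 0.09, adjusted p = 0.00793), and neither reached the fold threshold. The second was 0.27 (adjusted p = 0.115) without MDA-MB-436 NEG replicate 1. The 50 expressed genes around BMP7 had median changes of 0.24 and 0.36 in the same comparisons, so that in standard serum BMP7 did not stand above its neighbours. MDA-MB-231 libraries held 1 to 5 counts of BMP7 in low serum and none in standard serum, so that no change was detectable at this depth. The level in MDA-MB-231 NEG was at least 364-fold lower than in MDA-MB-436 NEG in standard serum, against a floor of 3 counts per library, while the low serum value of -7.97 rested on 1 and 5 counts and moved to -7.24 without MDA-MB-231 NEG replicate 1 and to -9.48 without replicate 2. BMP7-AS1, an antisense gene that overlaps BMP7, held 0 or 1 counts in every library.

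BMP2 (ENSG00000125845; chr20:6748333-6760893, plus strand), a close relative of BMP4 and a strong inducer of bone, followed the reporter in MDA-MB-231. Its NEG libraries read 11.6 and 11.7 TPM and its POS libraries 16.9 and 14.2 in low serum, and 7.55 and 6.76 against 11.7 and 10.8 in standard serum. The log2 fold change was 0.61 in both (SE 0.08, adjusted p = 6.07e-08, and SE 0.13, adjusted p = 0.00131), a 1.53-fold change that was not called. In MDA-MB-436 it read 4.42 and 3.81 TPM in NEG and 3.33 and 3.87 in POS in low serum, and 3.31 and 3.06 against 3.07 and 2.68 in standard serum, with adjusted p of 0.771 and 0.237. The change differed between the lines by 0.56 (SE 0.15, adjusted p = 0.00186) in low serum, and by 0.85 (SE 0.21, adjusted p = 0.00284) in standard serum. NEG cells of MDA-MB-231 held 3.74-fold more BMP2 than those of MDA-MB-436 in low serum and 2.53-fold more in standard serum.

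Among the secreted regulators, BMPER was called in every comparison of POS with NEG. BMPER (ENSG00000164619; chr7:33943920-34196039, plus strand) encodes a secreted protein related to crossveinless that binds BMPs and can restrain or aid them depending on the context. Its 2 annotated starts are shown with the 250 bases before each (RefSeq, GRCh38.p14, plus strand, the first at chr7:33904665-33904914 and the other at chr7:33905289-33905538), because no other gene of the set was called higher in all 4 comparisons. Capitals mark GGCGCC, a GC-rich sequence to which SMAD proteins are known to bind.
BMPER first start: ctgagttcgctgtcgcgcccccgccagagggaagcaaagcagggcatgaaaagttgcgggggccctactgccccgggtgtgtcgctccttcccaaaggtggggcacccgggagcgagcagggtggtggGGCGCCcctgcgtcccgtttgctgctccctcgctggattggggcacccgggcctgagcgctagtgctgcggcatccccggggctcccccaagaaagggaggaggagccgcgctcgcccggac
BMPER second start: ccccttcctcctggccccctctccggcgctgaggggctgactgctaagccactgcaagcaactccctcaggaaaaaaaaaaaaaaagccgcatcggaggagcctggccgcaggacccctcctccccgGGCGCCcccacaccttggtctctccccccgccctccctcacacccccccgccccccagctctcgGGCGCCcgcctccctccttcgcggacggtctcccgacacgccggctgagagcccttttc
GGCGCC occurred 1 time in the first window and 2 times in the other, and 16.4% of the 35116 promoter windows of this length held it. Both strands were searched. The core of the classical SMAD element, CAGAC, was in neither window and in 38.0% of all windows. The Tcf/Lef core ATCAAAG was in neither window and in 2.26% of all windows. Promoter entries existed for 7 of the 10 genes, with 13 windows, and ATCAAAG was in none of the 13. GGCGCC was not particular to BMPER. It was also found 1 time in a BMP4 window and 2 times in a GREM1 window, and GREM1 was not called between POS and NEG. The BMPER windows held 70.8% and 69.2% G or C, and the share over all windows was not matched for this.

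BMPER read 0.48 and 0.62 TPM in MDA-MB-231 NEG and 2.14 and 2.11 in POS in low serum, and 0.72 and 0.87 against 2.45 and 2.39 in standard serum. In MDA-MB-436 it read 0.49 and 0.54 TPM in NEG and 1.78 and 1.91 in POS in low serum, and 0.27 and 0.24 against 1.15 and 1.17 in standard serum. The transcript was thus scarce everywhere, and every POS library lay above every NEG library of its line and serum. The rise was 2.16 (SE 0.19, adjusted p = 1.50e-12) and 1.58 (SE 0.21, adjusted p = 8.96e-06) in MDA-MB-231, and 2.09 (SE 0.21, adjusted p = 2.87e-11) and 2.08 (SE 0.27, adjusted p = 4.07e-06) in MDA-MB-436, in low and standard serum. These are 4.46, 2.98, 4.25 and 4.22-fold changes. The difference between the lines was 0.07 (SE 0.31, adjusted p = 0.891) in low serum, and -0.50 (SE 0.35, adjusted p = 0.281) in standard serum, which does not show that the rises were equal. The 50 nearest expressed genes on chromosome 7 had median log2 fold changes of 0.48 and 0.60 in MDA-MB-436 but of 0.02 and 0.09 in MDA-MB-231. The part of that regional shift in the MDA-MB-436 values was not tested.

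NOG (ENSG00000183691; chr17:54671060-54672972, plus strand) encodes noggin, which binds BMP2 and BMP4 tightly, and was abundant in MDA-MB-231 but scarce in the other line. In the former it read 46.2 and 49.4 TPM in NEG and 254 and 232 in POS in low serum, and 39.7 and 39.8 against 94.3 and 107 in standard serum. The rise of 2.55 (SE 0.06, adjusted p = 1.52e-31), or 5.84-fold, in low serum and of 1.30 (SE 0.12, adjusted p = 1.27e-06), or 2.46-fold, in standard serum moved NOG from above 88.1% to above 98.8% of protein-coding genes by TPM in the first and from 79.2% to 91.3% in the other. MDA-MB-436 libraries held 9 to 18 counts of NOG in low serum and 1 to 11 in standard serum. In low serum 10 and 9 counts in NEG stood against 18 and 17 in POS, a log2 fold change of 0.90 (SE 0.35, adjusted p = 0.0452) that was not called, and the adjusted p was 0.105 or more without any 1 of these 4 libraries. In standard serum 7 and 1 counts stood against 9 and 11, with a value of 1.06 (SE 0.59, adjusted p = 0.151) that became 3.02 and was called without NEG replicate 1. The rise was greater in MDA-MB-231 by 1.64 (SE 0.39, adjusted p = 0.000847) in low serum. In standard serum the difference of 0.24 (SE 0.72, adjusted p = 0.857) turned to -1.73 without that same library, so that its direction was not settled at these counts. Between the NEG groups NOG was higher in MDA-MB-231 by 6.97 (SE 0.14, adjusted p = 1.22e-35) in low serum, and by 7.67 (SE 0.26, adjusted p = 4.49e-13) in standard serum, the latter being 9.63 without MDA-MB-436 NEG replicate 1 and 6.77 without replicate 2.

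GREM1 (ENSG00000166923; chr15:33010205-33037307, plus strand) encodes gremlin 1, an antagonist of the DAN family, and showed the opposite distribution. In MDA-MB-436 it read 23.3 and 19.03 TPM in NEG and 22.4 and 25.03 in POS in low serum, and 6.85 and 6.35 against 9.37 and 8.67 in standard serum. The TPM values overlapped in low serum, and on counts the log2 fold change was 0.41 (SE 0.08, adjusted p = 1.81e-05) there and 0.36 (SE 0.15, adjusted p = 0.0517) in standard serum, so that GREM1 was not called in either. MDA-MB-231 libraries held 1 to 5 counts in low serum and 0 or 1 in standard serum. The level in MDA-MB-231 NEG was at least 85.0-fold lower than in MDA-MB-436 NEG in standard serum, and the low serum log2 fold change was -7.47 (SE 0.19, adjusted p = 1.69e-31). The overlapping antisense gene GREM1-AS1 held 0 to 8 counts.

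**Figure D2:**
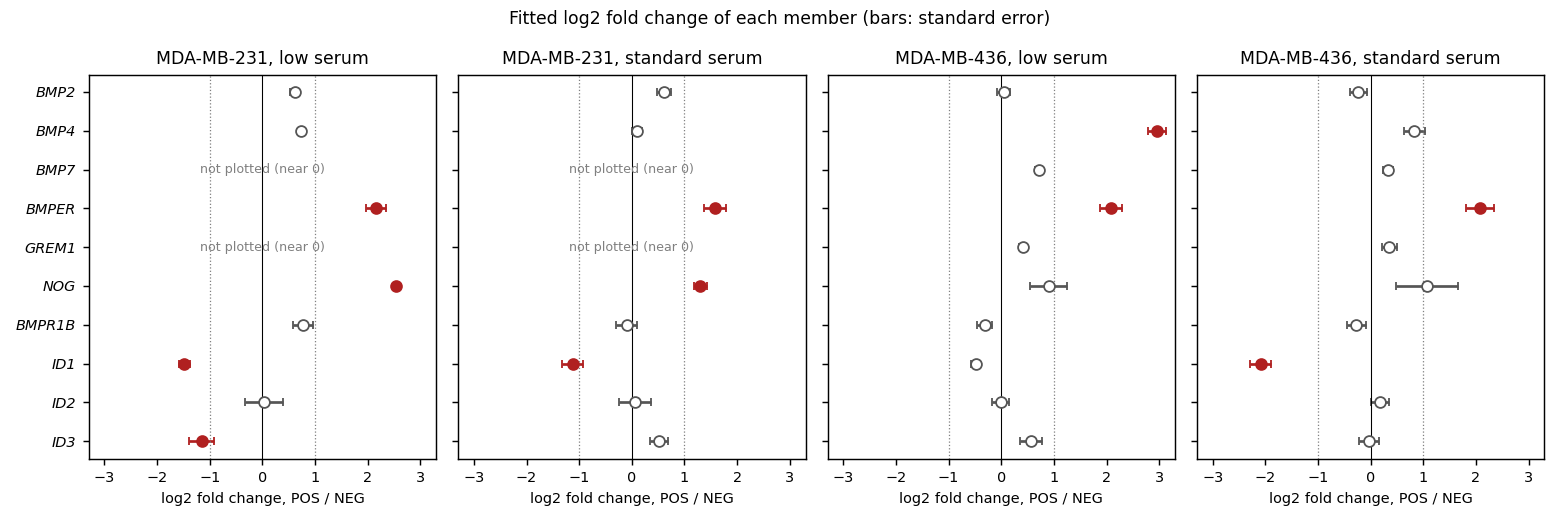
Fitted log2 fold change of POS over NEG (horizontal axis) for each gene in the 4 comparisons. Bars are standard errors, filled red points are called genes, dotted lines mark a log2 fold change of 1 in either direction, and genes under 0.1 TPM in both groups are not plotted. BMPER is red in all 4 panels, and NOG is red in both MDA-MB-231 panels.

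Set against the ligand it binds, NOG stood at 0.309 and 0.329 TPM per TPM of BMP4 in MDA-MB-231 NEG and at 1.07 and 1.18 in POS in low serum. The same ratio was 0.462 and 0.495 in NEG and 1.02 and 1.18 in POS in standard serum. All 4 POS libraries of MDA-MB-231 thus held slightly more NOG than BMP4 transcript, and all 4 NEG libraries less than 0.5. In MDA-MB-436 GREM1 stood at 1.27 to 1.43 TPM per TPM of BMP7 in NEG and 1.07 to 1.12 in POS in low serum, and at 0.280 to 0.329 over all libraries in standard serum. Both ratios were chosen after the values had been seen, and transcript ratios say nothing of secreted protein. NOG and GREM1 were also not the only antagonists at such levels. FST, the gene of follistatin, which binds activins and some BMPs, averaged 73.0 TPM in NEG and 48.4 in POS of MDA-MB-231 in low serum, and standard serum gave 267 and 256. In MDA-MB-436 FST lay above GREM1 in every group, with 38.5 and 27.4 TPM in low serum (28.1 and 22.4 under standard serum), and it was not called between POS and NEG in any comparison.

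**Figure D3:**
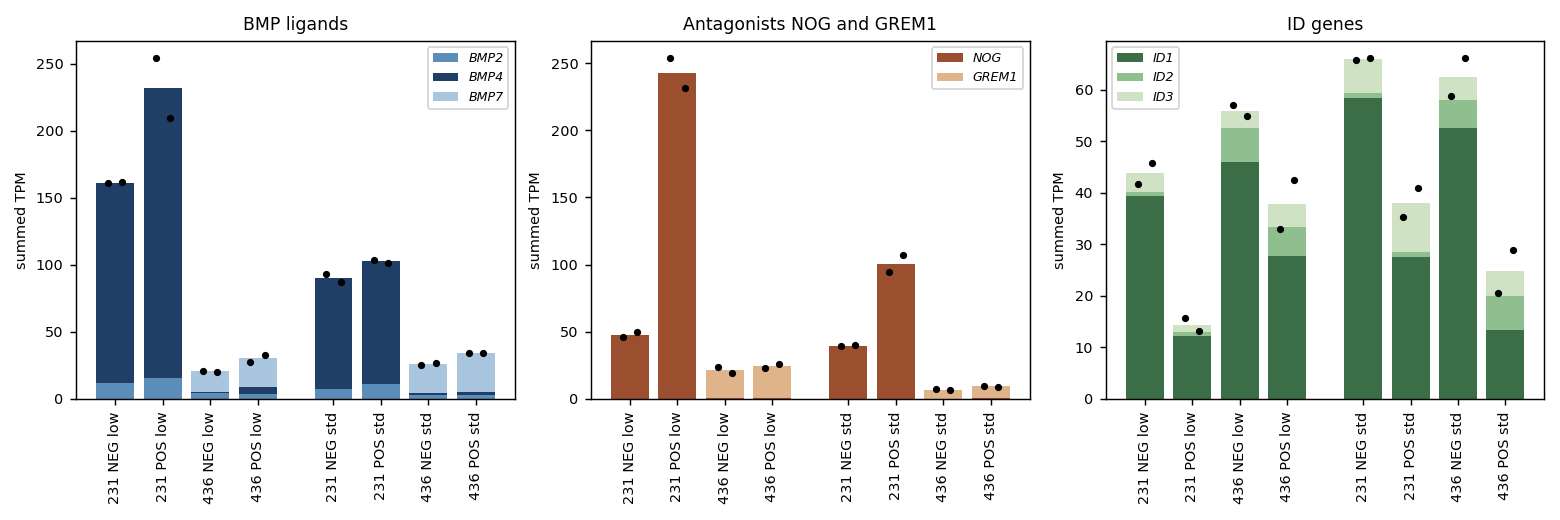
Summed TPM of the ligands, of the antagonists NOG and GREM1 and of the ID genes in the 8 groups (std, standard serum). Stacked bars are group means of each gene and points are the sums in the 2 replicates, and no other ligand, antagonist or ID gene is included. NOG fills the antagonist bars of MDA-MB-231 and GREM1 those of MDA-MB-436, and the ID sum is lower in each POS group.

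BMPR1B (ENSG00000138696; chr4:95679106-96079599, plus strand), a type I receptor for BMPs, was low in both lines and was not called between POS and NEG in any comparison. It read 0.62 and 0.97 TPM in MDA-MB-231 NEG and 1.26 and 1.12 in POS in low serum, and 3.20 and 2.98 against 1.89 and 2.33 in MDA-MB-436. In standard serum it read 1.22 and 1.43 against 1.27 and 1.27 in MDA-MB-231, and 2.24 and 2.24 against 2.21 and 1.74 in MDA-MB-436. In low serum the change was 0.78 (SE 0.19, adjusted p = 0.000892) in MDA-MB-231 and -0.31 (SE 0.14, adjusted p = 0.0650) in MDA-MB-436. The difference of 1.09 (SE 0.24, adjusted p = 0.000186) was called but rested on the MDA-MB-231 NEG libraries, falling to 0.82 without replicate 1. The MDA-MB-231 value of 0.78 itself became 0.50 (adjusted p = 0.0731) without NEG replicate 1 and 1.13 without NEG replicate 2. The NEG level was 2.93-fold lower in MDA-MB-231 than in MDA-MB-436 in low serum and 1.51-fold lower in standard serum, where it was not called.

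ID1 made up more than 58% of the summed TPM of ID1, ID2 and ID3 in 15 of the 16 libraries, and of these 3 genes it was the one that fell with the reporter in both lines. The sequences before the starts of ID1, ID2 and ID3 are shown (RefSeq, GRCh38.p14) because the 3 genes, all taken as BMP targets, did not move together. They lie at chr20:31605039-31605288 (plus strand), chr2:8681806-8682055 (plus strand) and chr1:23559502-23559751 (minus strand), and capitals mark CAGAC.
ID1: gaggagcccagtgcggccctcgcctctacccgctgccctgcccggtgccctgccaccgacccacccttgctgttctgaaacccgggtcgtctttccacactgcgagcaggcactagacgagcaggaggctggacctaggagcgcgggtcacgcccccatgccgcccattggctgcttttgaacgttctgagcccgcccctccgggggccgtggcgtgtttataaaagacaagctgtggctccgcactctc
ID2: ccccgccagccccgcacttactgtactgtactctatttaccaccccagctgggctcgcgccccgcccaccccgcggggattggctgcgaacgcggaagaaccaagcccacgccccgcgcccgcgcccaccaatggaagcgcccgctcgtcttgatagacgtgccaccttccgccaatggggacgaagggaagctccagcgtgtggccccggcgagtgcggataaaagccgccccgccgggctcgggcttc
ID3: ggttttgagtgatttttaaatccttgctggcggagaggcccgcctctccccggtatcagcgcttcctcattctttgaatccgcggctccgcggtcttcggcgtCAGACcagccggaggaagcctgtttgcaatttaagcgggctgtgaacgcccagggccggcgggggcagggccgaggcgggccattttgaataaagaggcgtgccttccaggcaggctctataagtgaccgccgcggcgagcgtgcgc
CAGAC was found 1 time in the ID3 window, 147 bases before the start, and the windows of ID1 and ID2 held neither this element nor the GC-rich or the Tcf/Lef sequence given above. The E-box CANNTG, the sequence bound by helix-loop-helix factors, was found 1 time in the ID2 window, in neither of the other ID windows, and in 61.8% of all windows. These windows cover only the 250 bases nearest the start, and the absence of a match says only that these letters are not in them.

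ID1 (ENSG00000125968; chr20:30193086-30194318, plus strand) read 38.1 and 40.6 TPM in MDA-MB-231 NEG and 13.4 and 11.1 in POS in low serum. In standard serum it read 58.1 and 58.9 TPM in NEG and 24.7 and 30.3 in POS. In MDA-MB-436 it read 46.9 and 44.9 against 25.1 and 30.6 TPM in low serum, and 48.98 and 55.95 against 9.90 and 16.8 in standard serum. Each POS library lay under both NEG libraries of its line and serum. In MDA-MB-231 ID1 fell by 1.48 (SE 0.10, adjusted p = 2.91e-16), or 2.79-fold, in low serum and by 1.12 (SE 0.19, adjusted p = 0.00197), or 2.18-fold, in standard serum. The latter was -0.99, just short of a call, without POS replicate 1. In MDA-MB-436 it decreased by 2.09 (SE 0.21, adjusted p = 3.68e-05), or 4.26-fold, in standard serum, and the low serum value of -0.48 (SE 0.09, adjusted p = 1.09e-05) was under the fold threshold. The NEG groups of the 2 lines stood close to each other. The log2 fold changes (MDA-MB-231 over MDA-MB-436) were 0.18 (adjusted p = 0.0498) in low serum and 0.32 (adjusted p = 0.139) in standard serum. On the TPM scale the low serum direction was the reverse, with means of 39.3 in MDA-MB-231 NEG and 45.9 in MDA-MB-436 NEG.

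The lines took opposite places in the 2 serum conditions. In low serum the fall was deeper in MDA-MB-231, by -0.999 (SE 0.13, adjusted p = 3.28e-08), and in standard serum it was deeper in MDA-MB-436, by 0.97 (SE 0.28, adjusted p = 0.0241). Both lay just under the fold threshold, and the second rested on single libraries. Leaving out 1 library carried the first to between -1.04 and -1.01 in 4 fits. The second rose to 1.04 without MDA-MB-436 NEG replicate 1, 1.10 without MDA-MB-231 POS replicate 1 and 1.37 without MDA-MB-436 POS replicate 2, and fell to 0.63 (adjusted p = 0.0122) without MDA-MB-436 POS replicate 1. Its adjusted p was between 0.0676 and 0.0873 without either MDA-MB-231 NEG library, MDA-MB-231 POS replicate 2 or MDA-MB-436 NEG replicate 2. Whether the place of the lines changed with serum itself cannot be told apart from the other differences between the conditions. The 50 expressed genes nearest to ID1 had median changes of -0.24 and -0.27 in MDA-MB-231, in low and standard serum, and of -0.08 and -0.01 in MDA-MB-436, and the part of the regional shift in the ID1 values was not tested.

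ID3 (ENSG00000117318; chr1:23884417-23885992, minus strand) fell in 1 comparison. It read 3.12 and 4.20 TPM in MDA-MB-231 NEG and 1.45 and 1.41 in POS in low serum, a change of -1.16 (SE 0.23, adjusted p = 8.80e-05), or a 2.23-fold fall. This call was lost without NEG replicate 2, at -0.93. In standard serum the same line read 6.75 and 6.26 TPM in NEG and 9.46 and 9.55 in POS, an increase of 0.51 (SE 0.17, adjusted p = 0.0288) whose adjusted p was 0.0800 to 0.143 without any 1 of these libraries. In MDA-MB-436 ID3 read 3.35 and 3.45 against 3.48 and 5.09 TPM in low serum, with a value of 0.56 (SE 0.20, adjusted p = 0.0184), and with 0.43 (adjusted p = 0.189) without NEG replicate 1 and 0.37 (adjusted p = 0.223) without POS replicate 2. It read 4.72 and 4.29 against 4.19 and 5.31 in standard serum, with -0.03 (SE 0.19, adjusted p = 0.928). In low serum the difference between the lines was -1.72 (SE 0.31, adjusted p = 1.26e-05), and in standard serum it was 0.53 (SE 0.25, adjusted p = 0.104). ID1 and ID3 thus went down together in MDA-MB-231 in low serum, while in standard serum ID1 fell and ID3 read higher in both POS libraries.

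ID2 (ENSG00000115738; chr2:8818975-8824591, plus strand) separated the lines but not the reporter states. It read 0.51 and 1.02 TPM in MDA-MB-231 NEG and 0.80 and 0.56 in POS in low serum, and 0.91 and 1.05 against 1.11 and 0.98 in standard serum. In MDA-MB-436 it read 6.86 and 6.41 against 4.47 and 6.79 TPM in low serum and 5.11 and 5.85 against 6.50 and 6.75 in standard serum. The fitted changes between POS and NEG lay between -0.01 and 0.17, and no adjusted p was under 0.05. In MDA-MB-231 the 14 to 27 counts per library leave room for changes that this depth could not show, with SE of 0.36 and 0.31. Between the NEG groups ID2 was lower in MDA-MB-231 by -2.72 (SE 0.24, adjusted p = 2.19e-13), or 6.58-fold, in low serum and by -2.32 (SE 0.23, adjusted p = 3.81e-08), or 4.98-fold, in standard serum. The overlapping antisense gene ID2-AS1 held 1 to 36 counts, and which strand the counting used is not given in the sources used here.

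Summed over ID1, ID2 and ID3, NEG libraries held 41.7 to 66.2 TPM and POS libraries 13.1 to 42.4. ID1 gave 91.3% and 88.6% of this sum in MDA-MB-231 NEG and 85.7% and 84.95% in POS in low serum, and 83.3% and 84.7% in MDA-MB-436 NEG against 48.1% and 58.2% in POS in standard serum. The share in this POS group was the lowest of the 8 groups, an observation made after the values had been seen. ID4, the remaining ID gene, is not in this sum, and averaged 7.68 and 10.3 TPM in NEG and POS of MDA-MB-231 in low serum (8.83 and 20.4 under standard serum), against at most 0.085 in the other line. In the standard serum POS group of MDA-MB-231 the ID4 mean of 20.4 TPM lay under both ID1 values (24.7 and 30.3 TPM).

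Across libraries, with the mean of each line and serum condition removed, log2(TPM + 1) of BMPER and ID1 ran in opposite directions (Pearson r = -0.90, n = 16), as did NOG and ID1 (r = -0.74). BMPER and NOG ran together (r = 0.82), and so did BMP2 and NOG (r = 0.75), whereas ID1 and ID3 were only loosely related (r = 0.25). NOG averaged only 0.225 to 0.795 TPM in the MDA-MB-436 groups, so its correlations rest mainly on MDA-MB-231. The pairs named are a selection, and others ran together as closely, such as BMP7 and GREM1 (r = 0.81) and BMP4 and BMP7 (r = 0.79). These values are descriptions, since the 16 points are 8 groups of 2 and share the POS and NEG states.

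Patterns over the 16 libraries were also compared with 12563 expressed genes, with the mean of each serum condition removed. The genes nearest to BMP4 were HMCN1 and LTBP2 (r = 0.99 for both), those nearest to NOG were HAS2 and ITGA1 (r = 0.99 for both), and those nearest to BMP2 were DOCK4 and OTUB2 (r = 0.99 for both). BMP7 lay nearest to GATA4 and BDKRB2, GREM1 to TRUB1 and SIM1 (r = 1.00 for these 4), and ID2 to GTPBP8 and ABCC9 (r = 0.99 for both). These are all genes that separate the lines, which carries most of the correlation. BMPER, which separates POS from NEG, was most like DOK6 and MTUS1 (r = 0.96 for both), and BMPR1B like LAPTM4B (r = 0.98) and LDHB (r = 0.97). ID1 was most like CNP and AGPAT2 (r = 0.91 for both), and ID3 like C3orf62 (r = 0.90) and UBE2D4 (r = 0.89).

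Of 60 other genes of the pathway, 59 were matched to a row by symbol. Of these, 55 passed the count filter of the low serum table and 56 that of the standard serum table. In MDA-MB-231 there were 7 called in low serum (5 higher and 2 lower in POS) beside 5.9% of all genes tested, and 11 in standard serum (7 and 4) beside 7.69%. In MDA-MB-436 the low serum count was 11 (8 and 3) beside 10.5%, and the standard serum count 13 (9 and 4) beside 12.5%. Their median changes were -0.11, -0.08, 0.26 and 0.23 in that order. Among 11 further ligands, BMP5 rose by 2.68 (SE 0.56) in MDA-MB-231 and by 4.65 (SE 0.38) in MDA-MB-436 in low serum, and in standard serum was higher in MDA-MB-436 POS by at least 10.6-fold, from NEG levels at or below 0.09 TPM. BMP3 rose by 1.53 in MDA-MB-231 in standard serum and by 2.50 in MDA-MB-436 in low serum, BMP6 by 1.19 in the latter, and BMP8B fell by 1.30 in MDA-MB-231 in standard serum. The ligands named in these 2 sentences remained under 5 TPM in both groups of those comparisons.

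Of 6 other receptors, ACVR2B, a type II receptor, rose in MDA-MB-436 by 1.16 (SE 0.07, adjusted p = 1.10e-17) in low serum, and 1.25 (SE 0.12, adjusted p = 2.55e-07) in standard serum. ACVRL1, the endothelial type I receptor for other BMPs, was called in all 4 comparisons at low counts, at least 3.80-fold and 5.56-fold higher in MDA-MB-231 POS and lower in MDA-MB-436 POS, by -2.38 in low serum and at least 11.4-fold in standard serum. Of 5 co-receptors, NEO1 fell by 1.65 in MDA-MB-231 and RGMB rose by 1.28 in MDA-MB-436, both in standard serum. Of 8 SMADs and SMAD ubiquitin ligases, SMAD6, an inhibitory SMAD that BMP signals are known to induce, rose in MDA-MB-436 by 1.27 (SE 0.10, adjusted p = 3.45e-14) in low serum, and 1.45 (SE 0.21, adjusted p = 1.95e-05) in standard serum, and SMAD9 fell by 1.64 in MDA-MB-231 in standard serum.

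Of 19 other antagonists and modulators, CHRDL1, a chordin-like BMP antagonist, fell in MDA-MB-231. It went from 14.6 to 1.53 TPM in low serum, a change of -3.04 (SE 0.11, adjusted p = 2.83e-24), and from 22.3 to 0.65 TPM in standard serum, a change of -5.13 (SE 0.16, adjusted p = 3.38e-14). NOG and CHRDL1, both antagonists, therefore moved in opposite directions in MDA-MB-231. TLL1, a protease of the family that cuts chordin, rose in MDA-MB-231 by 1.56 and 1.84, and was at least 10.6-fold and 5.97-fold higher in POS of MDA-MB-436, where the NEG libraries held 0 counts. In MDA-MB-436 KCP rose by 2.86 (low serum) and 1.74 (standard serum), VWC2 fell by 2.87 in low serum, and CRIM1 rose by 1.29 and CHRD, the gene of chordin, fell by 1.47 in standard serum.

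Of 8 other BMP-responsive genes, MSX2 fell in low serum in both lines, by 1.71 in MDA-MB-231 and 1.11 in MDA-MB-436, and in MDA-MB-231 ATOH8 rose by 1.32 (low serum) and 2.16 (standard serum). ID4 rose by 1.17 (SE 0.17, adjusted p = 3.18e-05) in MDA-MB-231 in standard serum, from 8.83 to 20.4 TPM, where ID1 fell, and MSX1 rose by 3.58 there. In MDA-MB-436 DLX5 rose by 1.74 in low serum and HEY1 by 1.24 in standard serum. Of the 3 E proteins that ID proteins bind, TCF4 rose in MDA-MB-231 by 3.16 (SE 0.11, adjusted p = 3.06e-25) in low serum, and 4.05 (SE 0.16, adjusted p = 1.43e-12) in standard serum, from 0.32 to 2.52 and from 0.19 to 3.25 TPM. This TCF4 is a helix-loop-helix factor and not the Tcf/Lef factor that shares the name.

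**Figure D4:**
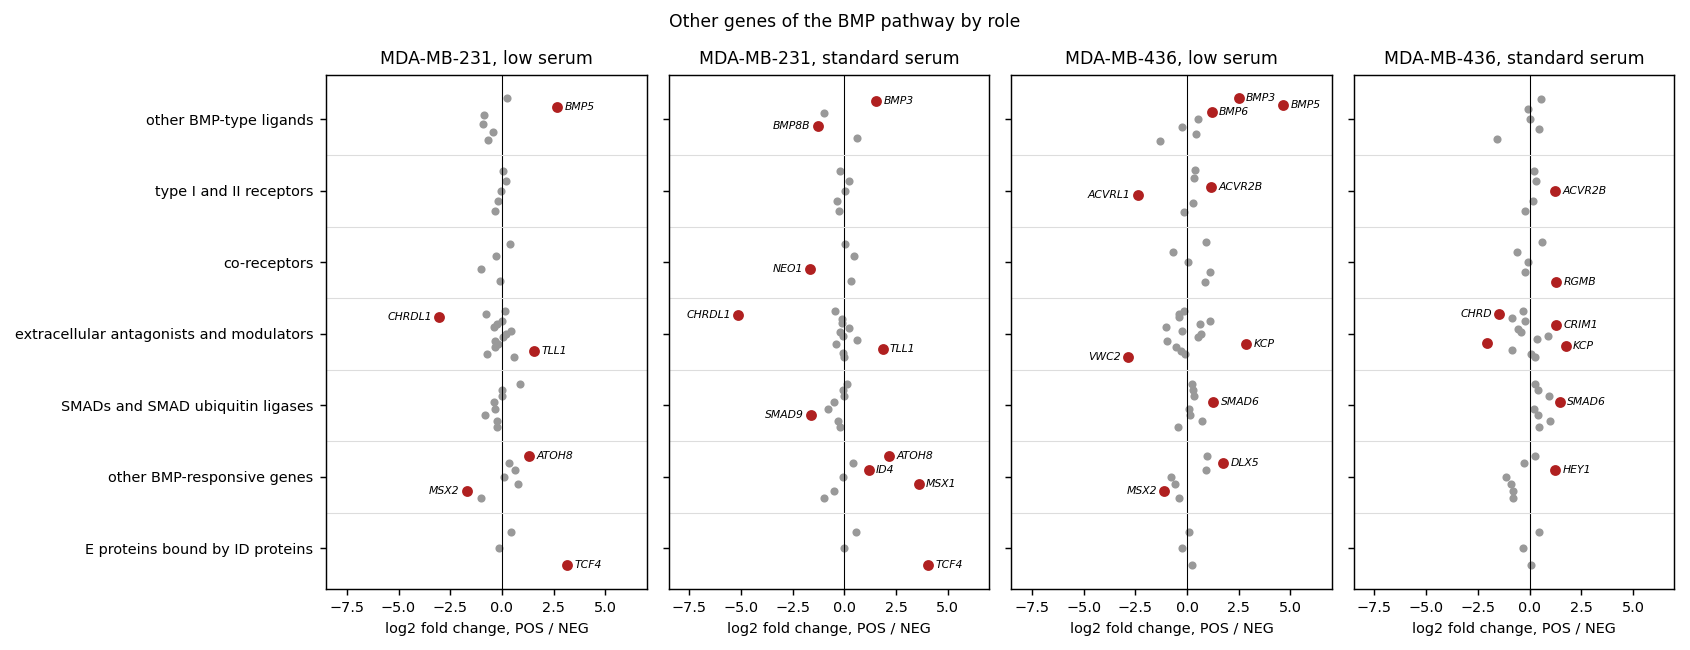
Log2 fold change of POS over NEG (horizontal axis) for the other BMP pathway genes tested, by role, in the 4 comparisons. Red points are called genes, named for at most 4 per role and comparison, grey points are not called, and genes with a group at or under 3 counts in each library are left out. TCF4 lies far to the right and CHRDL1 far to the left in MDA-MB-231, and SMAD6 and ACVR2B are red in both MDA-MB-436 panels.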

How the data were processed

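Bulk RNA-Seq of 16 libraries was analysed. The deposited counts are whole read pairs per gene, made by the authors with STAR on hg19 and Gencode annotation, without filtering or normalization (processing notes: STAR 2.6.1a, edgeR 3.22.5). The deposited TPM values came with the counts, and their calculation is not given in the sources used here. Per the paper's methods, low serum RNA was rRNA-depleted and standard serum RNA poly(A)-selected on another sequencer, whereas the labels name a single mRNA kit.

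Samples were grouped by cell line, reporter state and serum from the labels. Symbols were taken from Gencode lifted to GRCh37. Within each serum condition, protein-coding genes totalling 10 counts or more received TMM factors and entered a robust quasi-likelihood fit in edgeR with 4 groups, with Benjamini-Hochberg adjustment over all genes tested. SE is the log2 fold change over the square root of F. Groups with 3 counts or fewer in each library gave bounds. Neighbours were 25 tested genes of at least 1 CPM on each side (fewer near a chromosome end). The 10 genes and the pathway and marker lists were chosen with earlier results of these data known. All 10 members are named, and at most 4 called pathway genes per role and comparison, by adjusted p. The script was tested on simulated data. Alternatives were DESeq2, its size factors, other filters, no fold threshold, a replicate block and leaving out each library. Replicate numbers were taken from the labels. The tools were DESeq2 1.42.0 and edgeR 4.0.16 under R 4.3.3, and Python 3.11.15, numpy 2.4.6, pandas 2.3.3 and matplotlib 3.10.9. The SE includes the spread between replicates, whereas the floor of 3 counts covers counting error only.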

Additional observations from a re-analysis of the deposited data

Results flagged for a closer look

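For these genes the change between POS and NEG differed from line to line by an interaction term with an adjusted p under 0.05 (edgeR's quasi-likelihood test, differences given as MDA-MB-231 minus MDA-MB-436 on the log2 scale). In low serum, where 11.7% of all genes tested were called for such a difference, 4 of the 10 genes were called: BMP4 at -2.23, NOG at 1.64, BMPR1B at 1.09 and ID3 at -1.72. BMP2 at 0.56 and ID1 at -0.999 passed the adjusted p but not the fold threshold. In standard serum, where 13.8% of all genes were called, 0 of the 10 genes were called, and BMP2 at 0.85, BMP4 at -0.73 and ID1 at 0.97 passed the adjusted p alone, which BMP4 and ID1 did not keep without some single libraries. ID1 is the gene whose difference had opposite signs in low and standard serum with an adjusted p under 0.05 in each. The change of that difference between serum conditions was not tested, because serum cannot be told apart from library preparation, sequencing run and days in culture.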

How the results depend on the processing

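Of 694 alternative values of 70 log2 fold changes of the 10 genes, 662 kept their direction and side of the threshold, 3 lost the call, 12 gained it and 17 reversed, all 32 of them with a library left out. DESeq2, its size factors, other filters on low counts and the replicate block changed no call of these genes. With the adjusted p alone and no fold threshold, 7 members passed in each line in low serum. Beside them stood 38.9% of all genes tested in MDA-MB-231 and 52.0% in MDA-MB-436. The low serum difference gave 6 beside 45.7%, and NEG against NEG gave 9 beside 79.2%. In standard serum 5 passed in MDA-MB-231 (beside 33.0%), 4 in MDA-MB-436 (49.5%), 3 for the difference (41.2%) and 9 for NEG against NEG (78.8%). Over all genes these counts were 6250, 8348, 7345 and 12730 in low serum (MDA-MB-231, MDA-MB-436, difference, NEG against NEG) and 5084, 7631, 6355 and 12140 in standard serum. Leaving out single libraries, members called in standard serum ranged from 2 to 4 in MDA-MB-436 and from 0 to 2 for the difference. The reversed values were of changes that were not called, and their ranges over the fits without a library span 0. In low serum they ran from -0.38 to 0.60 for ID2 in MDA-MB-231, from -0.23 to 0.19 for ID2 in MDA-MB-436, from -0.36 to 0.65 for its difference and from -0.093 to 0.30 for that of BMPER. In standard serum they ran from -0.23 to 0.029 for BMPR1B and from -0.066 to 0.17 for ID2 in MDA-MB-231, from -0.19 to 0.12 for ID3 in MDA-MB-436 and from -1.73 to 1.14 for the NOG difference, which rests on 1 to 11 counts a library. Deviations of same-numbered samples correlated at -0.18 to 0.08 in low serum, and in standard serum at 0.12 to 0.40 for 5 of 6 pairs of groups and at -0.04 for the other. Since not every pair in standard serum was over 0.1 and the labels tie no number to a shared batch or day, the numbers were not taken to pair the samples, although standard serum samples leaned that way. With the replicate block, all genes called were 926 and 1667 in low serum, then 1170 and 1938 in standard serum, for MDA-MB-231 and MDA-MB-436, against 948, 1694, 1185 and 1932 without it. Depth limits BMP7 and GREM1 in MDA-MB-231 and NOG in MDA-MB-436, which rest on few or no counts.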
